A study of Mus musculus with 4 samples.

Results

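The regions described here are YAP peaks that lie over genes in mouse embryonic stem cells (ESCs), sorted by the part of the gene under the peak's summit. The peak lists of both YAP ChIP-Seq replicates were joined wherever 2 peaks overlapped by at least 1 bp. The joined peaks were kept on chromosomes 1 to 19 and X if they overlapped any gene record of the GENCODE vM1 annotation. Of 493 joined peaks on these chromosomes, 257 overlapped a gene, and 236 lay outside gene records. Of the 257, 168 belonged to protein-coding or long noncoding RNA (lncRNA) genes and are the members described below. Another 29 were over histone genes, 53 over snRNA or snoRNA genes and 7 over pseudogenes, and these are only counted. Of the snRNA and snoRNA peaks, 24 also overlapped a coding or lncRNA gene, as did 4 of the histone peaks, and they stayed in their own class.

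The cells were E14Tg2a, a feeder-independent mouse ESC line, kept undifferentiated. Chromatin was precipitated with a rabbit polyclonal antibody to YAP in 2 independent experiments, and each gave 1 sequenced library. No second condition was profiled, so all values describe undifferentiated ESCs of 1 line. The 2 input samples of the series, and the IgG control that the study's methods name, were not analysed here, and each list was called without a control file. Replicate 1 had 27762264 tags and 447 peaks, and replicate 2 had 18187551 tags and 154 peaks.

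YAP is a transcriptional coactivator without a DNA-binding domain of its own. It reaches chromatin mainly through the TEAD factors, which recognise the letters CATTCC, and the Hippo kinases keep it out of the nucleus. Promoters lie around the start of a gene and hold the sites where transcription begins, whereas introns are cut out of the transcript and can hold distal enhancers. In other cell types, most YAP and TEAD binding is known from such distal sites rather than from promoters.

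A promoter peak here had its summit within 1 kb of the start of any annotated transcript of an overlapped gene, which need not be the gene's main promoter. The other peaks were called exon or intron peaks by the base under the summit. Ctgf and Wwc2 had the most CATTCC letters at a promoter summit, 3 each, and Plekhh3 had the only promoter peak found in both replicates whose summit shared no long stretch of sequence with another peak. Their summit regions are therefore printed, from the mm9 assembly and on each gene's own strand, at chr10:24315133-24315233 (plus strand), chr8:49075941-49076101 (minus strand) and chr11:101033264-101033364 (minus strand). Capitals mark CATTCC and its reverse complement GGAATG.
Ctgf: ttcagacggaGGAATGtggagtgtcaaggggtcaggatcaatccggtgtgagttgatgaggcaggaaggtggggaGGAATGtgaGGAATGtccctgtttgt
Wwc2: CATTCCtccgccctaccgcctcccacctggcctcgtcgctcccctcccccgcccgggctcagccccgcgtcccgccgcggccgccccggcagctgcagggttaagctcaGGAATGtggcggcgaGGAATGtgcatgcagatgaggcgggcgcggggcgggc
Plekhh3: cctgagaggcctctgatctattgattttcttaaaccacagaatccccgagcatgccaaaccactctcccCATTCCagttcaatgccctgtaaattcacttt

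The intron peaks looked different. In 29 of the 102 intron peaks of coding genes, the summit window, which is the summit with 100 bp to each side, held 6 or more GA units in a row, on either strand. Qpct had the highest score of these, Nov encodes a secreted protein of the same family as Ctgf, and Asap1 is on a list of YAP-responsive genes. They are shown at chr17:79487437-79487517 (plus strand), chr15:54578535-54578615 (plus strand) and chr15:64107298-64107378 (minus strand), with runs of 6 or more units in capitals, which read as TC on the strand shown.
Qpct: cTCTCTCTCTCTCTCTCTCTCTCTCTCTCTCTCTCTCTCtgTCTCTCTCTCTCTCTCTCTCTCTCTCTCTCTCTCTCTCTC
Nov: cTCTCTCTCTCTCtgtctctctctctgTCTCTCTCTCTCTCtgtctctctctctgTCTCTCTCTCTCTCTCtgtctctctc
Asap1: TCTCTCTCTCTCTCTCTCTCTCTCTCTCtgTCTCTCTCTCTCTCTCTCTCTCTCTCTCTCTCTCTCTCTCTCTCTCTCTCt

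A further 27 coding intron peaks shared long stretches of sequence with other peaks. Some pairs are printed, each as 101 bp that hold its longest identical run, with the letters of any 20-base word found in both summit regions in capitals. The pair 2210408I21Rik at chr13:77578178-77578278 (plus strand) and Gm10800 at chr2:98506906-98507006 (minus strand) had an identical run of 37 bases, and Chl1 at chr6:103599164-103599264 (plus strand) and Gm10801 at chr2:98502836-98502936 (plus strand) had a run of 56 bases.
2210408I21Rik: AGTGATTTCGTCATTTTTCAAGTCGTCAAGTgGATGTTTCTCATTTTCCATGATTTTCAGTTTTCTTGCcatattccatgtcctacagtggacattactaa
Gm10800: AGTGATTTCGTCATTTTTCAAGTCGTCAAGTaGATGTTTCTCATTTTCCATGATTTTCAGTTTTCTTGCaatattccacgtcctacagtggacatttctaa
Chl1: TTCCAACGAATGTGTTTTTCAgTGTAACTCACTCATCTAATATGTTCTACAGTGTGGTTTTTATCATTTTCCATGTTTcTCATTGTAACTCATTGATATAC
Gm10801: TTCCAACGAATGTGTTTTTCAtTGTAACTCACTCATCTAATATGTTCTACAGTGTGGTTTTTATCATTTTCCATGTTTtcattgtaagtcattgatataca
The next pairs were GC-rich. The gene 2610528E23Rik at chr16:57391518-57391618 (plus strand) and Jarid2 at chr13:44965271-44965371 (plus strand) had an identical run of 49 bases, and Zc3h7a at chr16:11144109-11144209 (plus strand) and C230081A13Rik at chr9:56071567-56071667 (minus strand) had a run of 81 bases.
2610528E23Rik: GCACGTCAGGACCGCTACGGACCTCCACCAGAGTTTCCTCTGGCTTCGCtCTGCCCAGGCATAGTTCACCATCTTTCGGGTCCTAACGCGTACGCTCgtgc
Jarid2: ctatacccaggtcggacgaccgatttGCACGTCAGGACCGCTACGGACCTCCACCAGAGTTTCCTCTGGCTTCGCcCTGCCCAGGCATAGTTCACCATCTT
Zc3h7a: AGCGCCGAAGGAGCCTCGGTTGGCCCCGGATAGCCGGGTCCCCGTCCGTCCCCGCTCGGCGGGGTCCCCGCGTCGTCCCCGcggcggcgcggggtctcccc
C230081A13Rik: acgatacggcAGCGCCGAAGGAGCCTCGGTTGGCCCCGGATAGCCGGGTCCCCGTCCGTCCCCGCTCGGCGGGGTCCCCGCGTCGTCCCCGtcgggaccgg
By their letters, the Gm10800 and Gm10801 pairs resemble mouse satellite repeats and the GC-rich pairs resemble ribosomal RNA, but no reference of these repeats was used here and the names were not checked.

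Most of the members were intron peaks, and most were found by a single replicate. Summits fell in introns for 118 of the 168 members (70.2%), in promoters for 35 (20.8%) and in exons for 11 (6.55%). In the 4 remaining members, the peak reached into the gene but its summit lay outside the gene record. Coding genes held 149 members and lncRNA genes 19.

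**Figure D1:**
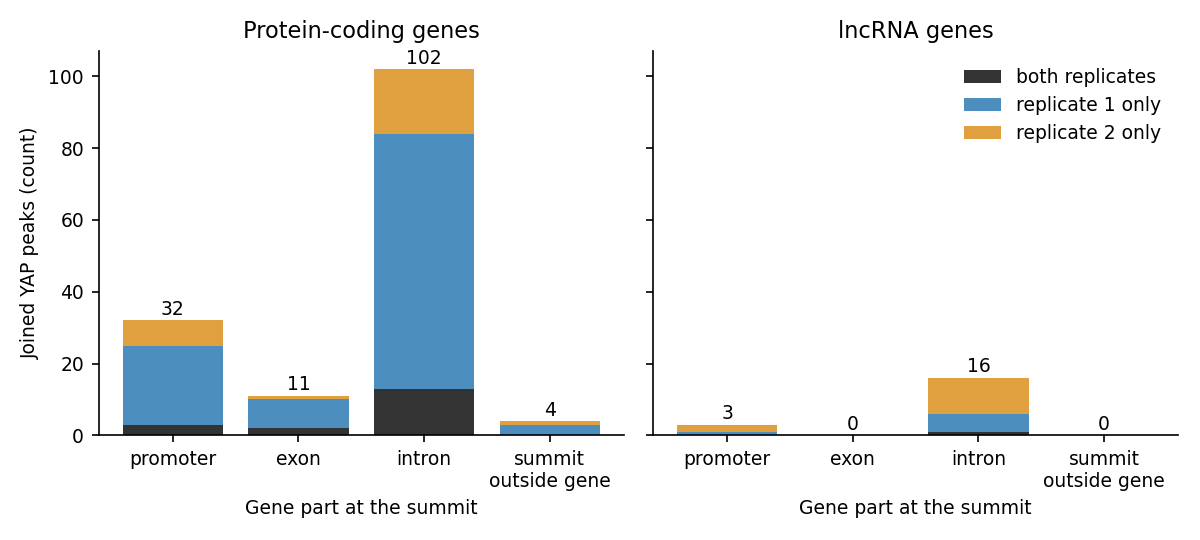
Joined YAP peaks (y axis, count) by the gene part under the summit (x axis), in protein-coding genes (left) and lncRNA genes (right), with bars split by the replicates that found the peak. Introns of coding genes hold 102 peaks, of which 71 were found in replicate 1 only.

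Only 19 of the 168 members (11.3%) were found in both replicates. Over all 493 joined peaks, the share was 12.2% (60 peaks), so the members' share was near that of all peaks. Replicate 1 alone found 110 members and replicate 2 alone 39. In coding genes, 3 of 32 promoter peaks, 2 of 11 exon peaks and 13 of 102 intron peaks were found in both. In lncRNA genes, 1 of 19 was. Of the peaks over snRNA and snoRNA genes, 23 of 53 (43.4%) were found in both, and of those outside gene records 16 of 236 (6.78%). These shares were not compared by a test, since peaks are not replicates of a condition.

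Promoters held a larger share of summits than of sequence. For this comparison all 411 joined peaks without the histone, snRNA and snoRNA peaks were used, inside genes or not. Promoter summits made up 9.25% of them (38 peaks), whereas 3.35% of the assembled bases lie within 1 kb of a coding or lncRNA start, a ratio of 2.76. Exon summits made up 2.68% against 2.41% of bases. Intron summits made up 28.2% against 35.8% of bases, a ratio of 0.789, and summits outside coding and lncRNA genes 59.9% against 58.5%. Among the 35 of these peaks found in both replicates, the order for introns was the other way, with 14 summits and a ratio of 1.12. Outside coding and lncRNA genes lay 16 (45.7%), while promoters held 3 (8.57%). Of these 3 promoter summits, only that of Plekhh3 shared no long stretch of sequence with another peak. Among the 14 intron summits, 6 of the 13 in coding genes shared such a stretch, as did that of the lncRNA gene Gm16724.

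**Figure D2:**
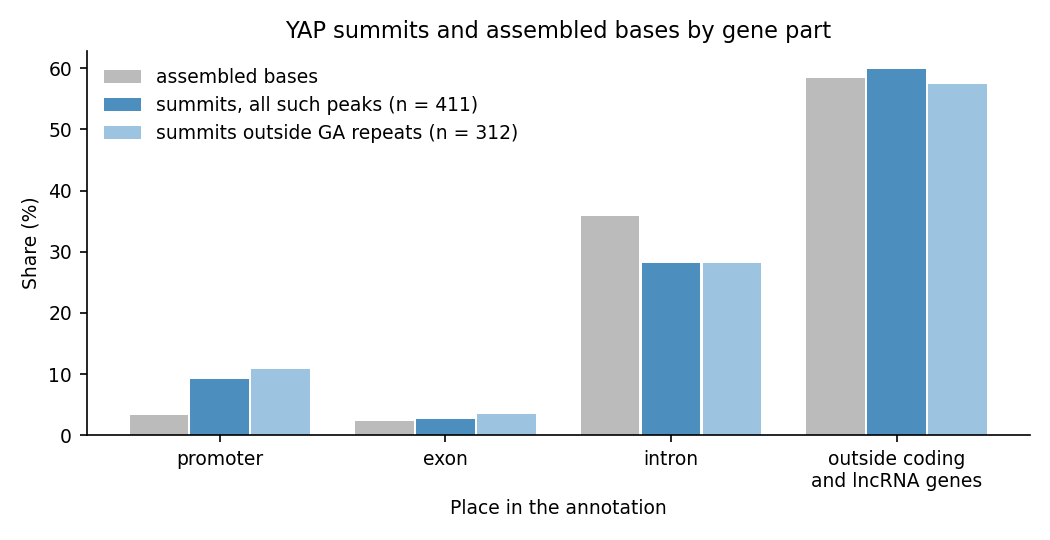
Share (y axis, percent) of assembled bases (grey) and of YAP summits (blue) in promoters, exons, introns and outside coding and lncRNA genes (x axis), without the histone, snRNA and snoRNA peaks. Promoters hold 9.25% of the 411 summits and 3.35% of the bases, and without GA repeats (light blue, 312 summits) they hold 10.9%.

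The promoter share was above that of the bases in each list taken alone, 8.87% in replicate 1 (29 of 327 peaks) and 10.1% in replicate 2 (12 of 119). The intron share was 26.9% in replicate 1 and 35.3% in replicate 2. Among the 274 peaks in which at least 50% of the 25-base words occur once in the assembly, promoters held 9.49%. A word that occurs once is called unique here, and a low share of unique words marks sequence with near-identical copies elsewhere, to which reads cannot be assigned with certainty. The 274 peaks pool both lists, so they do not give the promoter share of replicate 2 alone in unique sequence. Of the 12 promoter peaks in replicate 2, only Plekhh3, Rab7l1 and Rhot2 had at least 50% unique words. Of the same 12, 4 lay in a single stretch of chromosome 9, described next.

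The promoter peaks that a single replicate found differed in sequence between the replicates. Of the 35, 32 belonged to coding and 3 to lncRNA genes. Replicate 1 alone found 22 of the coding promoter peaks. Their sequence was mostly unique, with a median of 97.9% unique words, and their summit windows had a median GC content of 55.7% and a mean of 11.2 CpG dinucleotides, compared with 48.3% and 4.75 over all promoter windows of the assembly. The promoter windows of the assembly lay at a median of 460 bp from a start, and the 32 coding promoter summits at 194.5 bp. The GC and CpG values are therefore not a like comparison. The scores of the 22 peaks were low, with a median of 54.2 and a highest value of 103.52. The score is minus 10 times the log10 of the peak caller's p-value, and the replicate 1 list starts at 50.01. Some of the 22 peaks overlapped a neighbouring gene too, such as Ddx51 with Noc4l (27 tags) and Armc6 with Sugp2 (41 tags), both named after their values were seen.

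Replicate 2 alone found 7 coding promoter peaks, of which 5 had less than 50% unique words. Of these, 4 at the predicted genes Gm10722, Gm10720, Gm11167 and Gm10106 lay between 2999879 and 3032885 on chromosome 9, at the assembled end of the chromosome next to the centromere. Their shares of unique words ran from 3.34 to 8.35%. Gm10720 had the highest score of the 4 in replicate 2, 434.98 with 197 tags, and Gm10722 had 1012 tags and a score of 202.68. No replicate 1 peak overlapped any of them. All 4 belonged to the same group of shared sequence as Gm10800 and the intron peak of 2210408I21Rik, shown above. The fifth, Gm10222 on chromosome 1, had 22 tags and 5.74% unique words, and 170 of the 182 words of 20 bases around its summit also occur in the mitochondrial genome. The other 2, Rab7l1, a Rab GTPase gene, and Rhot2 had 28 and 34 tags in sequence of which at least 99.3% of words were unique.

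The 3 promoter peaks found in both replicates were at Gm10800, Gm10801 and Plekhh3. Gm10800 had 1962 tags in replicate 1 and 1381 in replicate 2, and Gm10801 had 1436 and 1018. These 2 neighbouring predicted genes on chromosome 2 held the most tags of all members in both libraries. Only 28.6% and 27.1% of the words in their peaks were unique. Their fold enrichment over the local background was 5.07 and 4.79 in replicate 1, lower than the 10.28 that was the median of coding intron peaks. Plekhh3, which encodes a protein with a pleckstrin homology domain, had 66 and 54 tags in a peak whose words were all unique. Its summit lay at −679 bp from the Plekhh3 start, negative values being upstream, and the peak also touched Cntnap1, an axonal contactin-associated protein gene.

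By score in replicate 1, the promoter peaks after Gm10800 and Gm10801 were Gapdh (103.52, 132 tags), Pak3 (92.34, 28 tags), Gria1 (91.47, 35 tags), Txnip (83.29, 83 tags), 4931408C20Rik (70.32, 53 tags) and Ctgf (69.64, 61 tags). Gapdh encodes a glycolytic enzyme, Pak3 a kinase acting on the cytoskeleton, Gria1 a glutamate receptor subunit and Txnip a thioredoxin-binding protein that restrains glucose uptake. None had a peak in replicate 2. At Gapdh and Gria1, the start in question was that of a shorter transcript inside the gene. The Gria1 summit lay 51.7% along its record of 318858 bp, and the Gapdh summit lay past the 3′ end of its record, inside the record of the neighbouring Iffo1. The Gria1 and Pak3 summits stood in GA repeats, and they were the only promoter members of which this was true. Ctgf, the best known YAP target, had its summit at −55 bp from the start, and Wwc2, a Hippo scaffold gene, at −104 bp with 75 tags and a score of 62.18.

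Promoter summits lie within 1 kb of a start by definition. Their median distance to a start of the overlapped genes was 197 bp. Over all promoter windows of the assembly, the median distance to any coding or lncRNA start was 460 bp. Of the 35 summits, 18 lay within 200 bp and 28 within 500 bp, with 18 upstream and 17 at or downstream of the start. The peak itself covered a start of the gene in 32. For 31 of the 35, the summit was within 1 kb of the 5′ end of a gene record, and the others, Gapdh, Gria1, Ccdc62 and Pisd-ps2, were placed by the start of a shorter transcript. Just inside the 1 kb limit were A230065H16Rik at 738 bp, Pisd-ps2 at 817 bp and Gapdh at 984 bp from the nearest transcript start. Just outside were Idh3b at 1035 bp, Lonp1 at 1079 bp and 4930442H23Rik at 1105 bp, all 3 counted as exon peaks. The start nearest to the Idh3b summit was that of a shorter transcript, and the start nearest to the Lonp1 summit was that of Rpl36, so both summits lay near the 3′ end of the gene named, 96.0% and 98.6% along it.

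**Figure D3:**
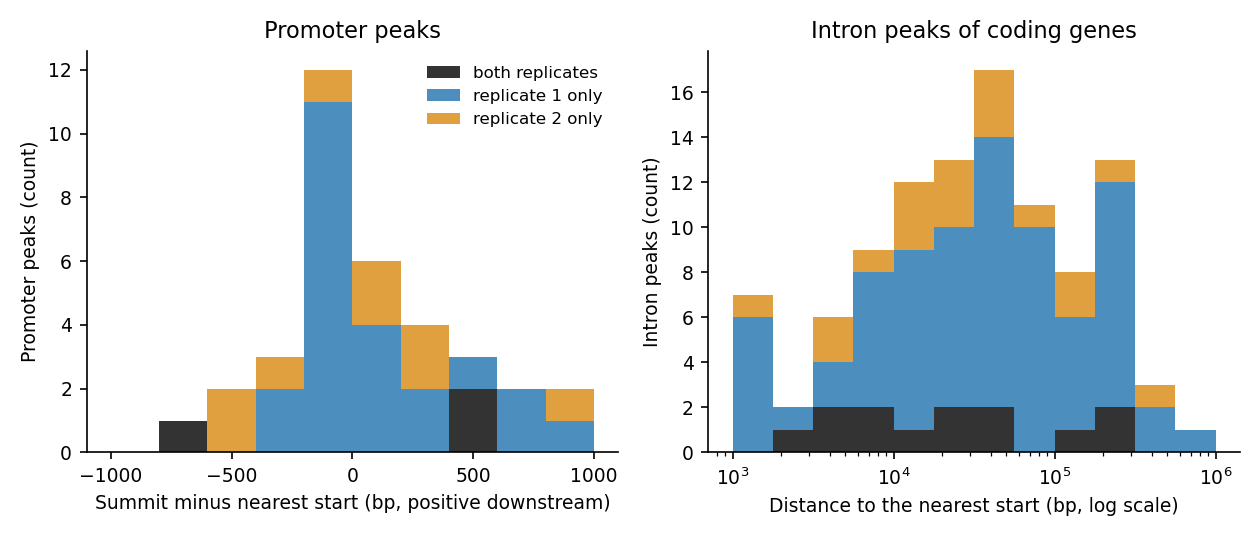
Distance of the summit from the nearest start site of the overlapped genes, for the 35 promoter peaks (left, bp, negative upstream, linear scale) and the 102 intron peaks of coding genes (right, bp, log scale), with bars split by the replicates that found the peak. The gene parts are defined by this distance, so the panels are not a comparison, and 18 promoter summits lie within 200 bp of a start.

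Exon peaks were few, and 5 of the 11 also overlapped a neighbouring gene. Of the 11 exon summits, 6 were in a 3′ untranslated region and 5 in coding sequence. Lars2, the mitochondrial leucyl-tRNA synthetase gene, had 171 tags in replicate 1 and 39 in replicate 2. Slc30a4, a zinc transporter gene, had 70 and 46 tags, with summits 417 bp apart, the widest gap of any shared member. Trim41, a ubiquitin ligase gene, had 180 tags and a score of 96.08. Agtrap, a gene for an angiotensin receptor-associated protein, had 78 tags and a score of 98.00, the highest of the exon peaks found in a single replicate. Slc35b2, a nucleotide sulfate transporter gene, had 137 tags, 4930442H23Rik 85, Idh3b 77 and 2610036A22Rik 56, and all of these were found in replicate 1 only. Among the 11, 2610036A22Rik had the lowest share of unique words, 4.55%. The remaining exon peaks were at Lonp1 (95 tags) and Angptl6 (66 tags) in replicate 1 and at 2410141K09Rik (45 tags) in replicate 2.

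The neighbours were chosen after their values were seen. The Trim41 peak also overlapped Gnb2l1, a ribosome-bound scaffold gene, the Slc35b2 peak Hsp90ab1, a chaperone gene, the 4930442H23Rik peak Eef2, a translation elongation factor gene, the Idh3b peak Nop56, a snoRNP gene, and the Lonp1 peak Rpl36. Chosen in the same way, promoter peaks were at Actb (90 tags) and Pabpc1 (53 tags). Peaks with the summit outside the gene record were at Rpl3 (146 tags), Rps19 (89 tags) and Nlrp12 (330 tags), the last over a cluster of microRNA genes known from ESCs. These were found in replicate 1 only, as were the peaks of Trim41, Slc35b2, 4930442H23Rik, Idh3b, Lonp1, Actb and Pabpc1. The remaining member with its summit outside the record was Gm10354, with 33 tags in replicate 2 only.

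The intron peaks of coding genes spread over a wide range of distances. The distance from a coding intron summit to the nearest start of the overlapped coding genes ranged from 1174 to 706685 bp, with a median of 35092 bp. This distance was within 5 kb for 13 and over 100 kb for 25 of the 102. The median length of the coding gene under an intron peak was 232996 bp, and 71 of the peaks (69.6%) were in genes longer than 100 kb. Over all intron windows of the assembly, the medians were 22504 bp and 158026 bp, but they were measured otherwise. Window distances ran to the nearest start of any coding or lncRNA gene, and window lengths were those of the longest such gene. The values of peaks and windows are therefore not a like comparison. The 13 found in both replicates had medians of 25353 bp from the start and 159827 bp of gene length. The 71 found in replicate 1 only had medians of 36231 bp and 257438 bp, and the 18 found in replicate 2 only 19625 bp and 229569 bp. The first intron held 29 of the summits and the last intron 18. Of all coding genes, 0.799% overlapped a joined peak. Those of at least 200 kb did in 57 of 954 cases (5.97%), those of 50 to 200 kb in 33 of 3882 (0.850%) and shorter ones in 88 of 17436 (0.505%). These shares count genes and were not divided by gene length.

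GA repeats were found at intron summits of a single replicate. They stood at 29 of the 71 coding intron summits found in replicate 1 only (40.8%), at none of the 13 found in both and at none of the 18 found in replicate 2 only. With the promoter peaks of Gria1 and Pak3, 31 members had such a repeat, all in replicate 1 only. Of the windows of the same length, 1.33% of those in introns and 1.37% of all in the assembly held one. The windows 2000 bp to each side of coding intron summits held one in 2.94%. Outside gene records, 66 of 236 summits (28.0%) held one, so the feature was not particular to genes, and none of the histone, snRNA and snoRNA peaks did.

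**Figure D4:**
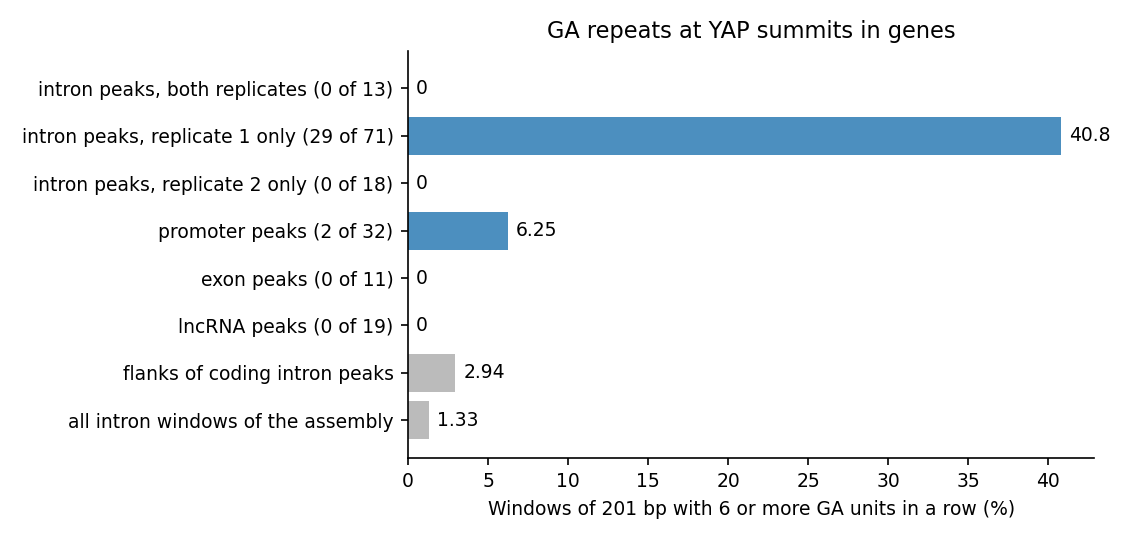
Share (x axis, percent) of summit windows, each the summit with 100 bp to each side, with 6 or more GA units in a row on either strand, by gene part and replicate (blue) and in flanking or assembly-wide windows (grey). Intron peaks of coding genes found in replicate 1 only reach 40.8%, and those found in both replicates or in replicate 2 only are at 0.

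The 31 GA-repeat members had 19 to 311 tags in replicate 1, with a median of 32. Their median score was 66.4 and their median fold enrichment 11.2, compared with 61.1 and 7.72 over all members found in replicate 1 only. The median share of unique words in these peaks was 71.8%. Qpct, a glutaminyl cyclase gene, had 311 tags and a score of 220.74, Hhat, a Hedgehog acyltransferase gene, 150 tags and 191.71, and Hs6st2, a heparan sulfate sulfotransferase gene, 42 tags and 142.64. Nov had 50 tags and a score of 126.07, and Znrf3, which removes Wnt receptors from the cell surface, had 42 tags and 103.53. These genes were named after the repeat was seen. Hhat had a second peak, over a small RNA gene and without a GA repeat. What the repeat has to do with the difference between the libraries was not tested.

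Shared sequence was common among the members found in both replicates. Summit windows were linked where they had 10 or more different words of 20 bases in common, leaving out simple repeats. Of the 19 shared members, 10 were linked to another peak (52.6%), compared with 21 of the 110 found in replicate 1 only (19.1%) and 8 of the 39 found in replicate 2 only (20.5%). With GA-repeat summits counted along with linked ones, the shares were 52.6%, 47.3% and 20.5% in the same order. Peaks with less than 50% unique words made up 15.8%, 24.5% and 51.3%. Over all joined peaks found in both replicates, the linked share was 56.7%, and it includes snRNA and histone genes with several copies. The largest group had 10 peaks, with Gm10800, Cdk5rap2, 2210408I21Rik, Gm16869 and the 4 chromosome 9 promoters as members. A group of 9 held 2610528E23Rik, Jarid2, Arhgap21 and Sspn, and a group of 8 held Lars2, Zc3h7a, Gphn, C230081A13Rik, Kpna1 and Gm16724. Chl1 and Gm10801 formed a group of 3 with a peak outside genes, all 3 of them found in both replicates. Camk1d, found in both, was in a group with Il31ra.

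The 19 shared members differed in how similar their levels were. Levels were compared as tags per 1000000 unique tags of each library, as the peak caller counted them. The tags were those in each replicate's own peak, and the peaks of a member could differ in extent. For D5Ertd579e, the replicate 1 peak ran from 37051780 to 37053185 and the replicate 2 peak from 37051902 to 37052673. A ratio can thus include a difference in peak extent, which was not separated here. Each replicate is a single library, so the intervals of the ratios include no error beyond that of counting tags. Ratios of replicate 1 to replicate 2 ranged from 0.659 to 4.56, and 10 of the 19 were above 1. The 95% exact binomial interval covered 1 for 12 members, lay above 1 for 5 and below 1 for 2.

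D5Ertd579e, an uncharacterised gene on chromosome 5, had 249 tags in replicate 1 and 36 in replicate 2, a ratio of 4.56 (interval 3.21 to 6.66). Zc3h7a, a zinc finger gene, had 233 and 55 tags, a ratio of 2.79. Lars2 had a ratio of 2.89. In these members, the level in the replicate 1 peak was above that in the replicate 2 peak by more than the counting error. The intron peaks of 2610528E23Rik (177 and 71 tags) and Apool (166 and 70 tags) were also higher in replicate 1, by 1.64 and 1.56. Apool, a mitochondrial inner membrane gene, had the highest replicate 1 score of all members, 636.44, and 209.57 in replicate 2.

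Cdk8, the kinase of the Mediator complex, had 76 tags in each replicate, so relative to the unique tags it was lower in replicate 1, with a ratio of 0.659 (interval 0.473 to 0.918). Chl1, a neural cell adhesion gene, had 288 and 257 tags, a ratio of 0.739 (interval 0.622 to 0.878). These 2 were the members with replicate 2 above replicate 1 beyond counting error.

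The other shared members did not differ beyond counting error. Kdm2b, a histone demethylase gene whose protein binds CpG islands, had 120 and 59 tags in sequence with 93.2% unique words. Fbxw4 had 63 and 57 tags, Camk1d 55 and 48, Cdk5rap2, a centrosome gene, 46 and 32, and Dock2, an activator of Rac in leukocytes, 26 and 22. The gene 4930468A15Rik had 136 and 76 tags, 2210408I21Rik 146 and 76, and the lncRNA Gm16724 56 and 32. Summits of the replicates were 12 bp apart at the median and within 20 bp for 13 of the 19. All 19 fell in the same gene part by either summit.

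**Figure D5:**
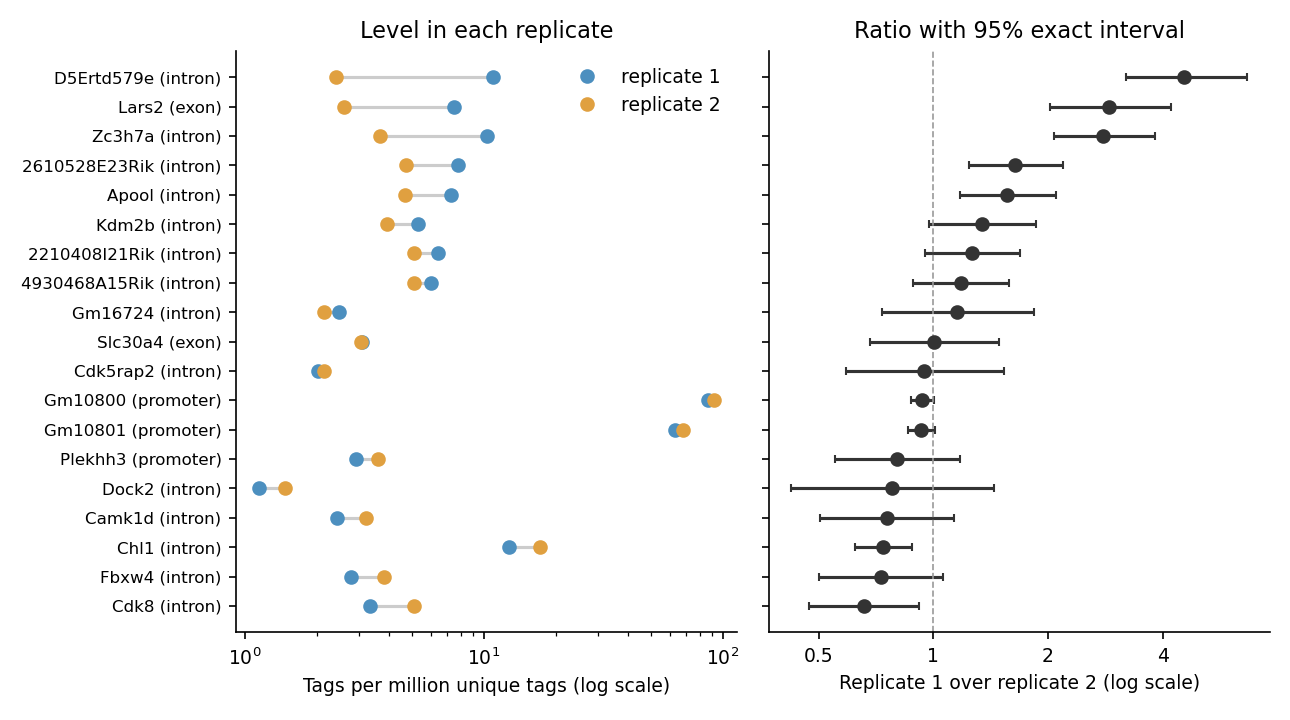
The 19 members found in both replicates, ordered by ratio. Left, tags in each replicate's own peak per 1000000 unique tags (log scale). Right, the ratio of replicate 1 to replicate 2 with its 95% exact binomial interval (log scale). D5Ertd579e has the highest ratio, 4.56, and Cdk8 the lowest, 0.659, and 12 intervals cover 1.

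Intron peaks found in a single replicate had lower scores. A peak found in both had to pass the cutoff in each list, so the groups were not selected alike. The median replicate 1 score was 260.59 for the 13 coding intron peaks found in both and 63.06 for the 71 found in replicate 1 only. Of the latter, Vps45, a membrane trafficking gene, had 185 tags and a score of 278.46, and C230081A13Rik had 85 tags and a score of 261.33. Of the 42 without a GA repeat, 21 shared sequence with another peak. Those that did not included Rasgrf2, an activator of Ras (79 tags, 89.1% unique words), Bahcc1 (70 tags, 98.5%) and Mapt, the tau gene (44 tags, 100%), which were chosen after their values were seen. Myo3a, a myosin gene, had 481 tags, but 136 of the 182 words of 20 bases at its summit also occur in the mitochondrial genome. The 18 found in replicate 2 only had a median of 19 tags. Their summit windows had a median GC content of 37.8%, compared with 48.8% for those found in replicate 1 only and 42.3% over all intron windows. The most tags were in the peaks of Mid1 (646 and 82) and Gm13242 (97), followed by Dnahc8, a dynein gene, with 37 and Dpp9, a dipeptidyl peptidase gene, with 34. The Mid1 peak with 646 tags was 11043 bp wide. Its fold enrichment, 2.65, was the lowest of the members in replicate 2, and that of Gm13242 was 4.46. None of the 18 shared sequence with another peak.

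The TEAD letters CATTCC were present at about the background share over all members and over coding intron peaks, but the share varied between smaller groups. They stood in the summit windows of 22 of the 168 members (13.1%), compared with 37 of the 336 flanking windows and 10.9% of all windows of the assembly. Coding intron summits had them in 11 of 102 (10.8%), beside 10.6% of intron windows. Of the 29 of these with a GA repeat, 1 had the letters. Without a GA repeat, 7 of the 42 found in replicate 1 only had them (16.7%). Of the 13 found in both replicates 2 had them, and of the 18 found in replicate 2 only 1 did. Coding promoter summits had them in 5 of 32 (15.6%), beside 10.1% of promoter windows, and these were Ctgf, Wwc2, Plekhh3, Ccdc62 and A230065H16Rik. The count of matches was highest in the Dpp9 window, 7, a peak found in replicate 2 only. The AP-1 letters TGANTCA, which read the same on both strands, stood in 8 members (4.76%), beside 5.96% of all windows. A match is a description of the letters, and no test was made.

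The lncRNA members lay mostly in repeated sequence. Of 3845 lncRNA genes, 30 (0.78%) overlapped a joined peak. Of the 19 members assigned to lncRNA genes, 15 had less than 50% unique words, with a median of 27.6%, compared with 77.2% over coding members. Replicate 2 alone found 12, replicate 1 alone 6 and both found Gm16724. All 5 peaks of 2610005L07Rik on chromosome 8 were found in replicate 2 only, with 7.26 to 27.6% unique words and 16 to 30 tags.

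The 5 peaks over Gm16889 on chromosome 4, which overlaps the lncRNA gene Gm17317, were split, with 2 in replicate 1 only and 3 in replicate 2 only. The 2 in replicate 1 had 519 and 517 tags, but a fold enrichment of 3.13 and 3.10, and the 3 in replicate 2 had 15 to 39 tags. Speer7-ps1 had 305 tags at its promoter and 189 in an intron, with 17.4% and 15.9% unique words. The most unique lncRNA members were Gm12979 (33 tags, 100% unique words) and 1700125G22Rik (75 tags, 99.5%), both in replicate 1 only.

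Of the 178 coding genes that overlapped a joined peak, few had more than 1. More of the 30 such lncRNA genes did in proportion, but some of their records overlap and hold the same peaks. Gm17317 holds the 5 peaks of Gm16889, and AC152164.1 and Gm17279 each hold 4 of the 5 peaks of 2610005L07Rik. Of the genes with more than 1 joined peak, Tex14 had 6, all of them in the snRNA and snoRNA class. The coding genes Il1rapl2, Mid1, Rims2 and Zfp600 had 2 member peaks each, and in each gene both peaks were found by the same single replicate. Mid1, a microtubule-bound ubiquitin ligase gene, had 646 and 82 tags in replicate 2, with a fold enrichment of 2.65 and 4.95. Rims2, a gene of synaptic vesicle release, had 18 and 23 tags.

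Gene lists of the pathways around YAP, put together with earlier results of these data known, were touched by few joined peaks. Of 37 Hippo pathway genes, 1 overlapped a joined peak, Wwc2, beside 0.799% of all 22272 coding genes. Of 25 YAP-responsive genes, 2 did, Ctgf and Asap1, and of 60 Wnt pathway genes, 1 did, Znrf3. Of 34 pluripotency genes, 2 did, Gdf3, a TGF-beta family ligand, and Jarid2, a partner of the Polycomb repressive complex. Of 52 histone modifier and remodeller genes, 2 did, Jarid2 and Kdm2b, and of 20 DNA methylation genes, none did. At the share over all coding genes, a list of this size would hold fewer than 1 gene. That share does not allow for gene length, and it was 5.97% among coding genes of at least 200 kb. Because the lists were also put together with earlier results known, no conclusion is drawn from their counts. Of the genes named here, Kdm2b was the only one with a peak in both replicates. Gdf3 had 60 tags and a score of 52.83 in replicate 1, 1346 bp from its start, in sequence with 90.4% unique words. The Asap1 and Znrf3 summits stood in GA repeats, and the Jarid2 summit was in a shared-sequence group with 8 other peaks.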

How the data were processed

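YAP ChIP-Seq libraries of undifferentiated E14Tg2a ESCs were made by the study from 2 independent experiments, with 1 library each. The authors aligned reads to mm9 with bowtie, kept reads with several alignment positions and weighted them, and called peaks in each library separately with MACS in Galaxy without a control file. Per the file headers, the p-value cutoff was 1e-05, the tag size 25 and the band width 300. The deposited tag count of a peak is the whole number of tags in it, not scaled to depth. The deposited score is minus 10 times the log10 of the p-value, and the deposited fold enrichment compares the peak with the local background of the same library. Of all tags, 81.8% in replicate 1 and 82.3% in replicate 2 were counted as unique tags in the file headers. That count is the peak caller's own. It is not based on the unique words above and is not taken here to mean tags that align to a single place.

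Peaks were joined and placed on GENCODE vM1 gene records with Python 3.11.15, pandas 2.3.3, numpy 2.4.6, pysam 0.24.0 and numba 0.67.0, and intervals were computed with scipy 1.17.1. Joining and placing were tested on simulated peaks. A histone gene took precedence over an snRNA or snoRNA gene, and both over coding and then lncRNA genes, the latter being lincRNA and processed transcript records. The summit was that of replicate 1 where it had a peak and otherwise that of replicate 2. A promoter summit took precedence over exon and intron. Words of 25 bases were counted over the reference of the same build. Flanking windows were centred 2000 bp to each side of a summit, and the assembly was cut into windows of the same length. Summit words of 20 bases with 10 or fewer different words of 4 bases inside were left out as simple repeats. Peaks are not replicates of a condition, so no test was made and counts are descriptions.

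The text names the members found in both replicates, the 8 of highest replicate 1 score in each gene part of coding genes and over lncRNA genes, genes with several peaks, list members, the 3 strongest peaks of replicate 2 only and those nearest the promoter limit. Other genes named were chosen after their values were seen. The members and lists were chosen with earlier results of these data known. The 2 input samples were not analysed here. Alternatives to the joining, placing and filtering are given at the end.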

Additional observations from a re-analysis of the deposited data

How the results depend on the processing

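The 6 counts of peaks (overlapping a gene, of coding and lncRNA genes, promoter, exon, intron, and found in both replicates) were recomputed under 11 alternatives, and 36 of 49 values stayed within 1.5 times the count reported. With scores of at least 100, the counts were 94 overlapping a gene, 35 of coding and lncRNA genes, 9 promoter, 1 exon, 23 intron and 8 found in both. Leaving out each replicate in turn gave 86 to 215 peaks overlapping a gene, 58 to 129 of coding and lncRNA genes, 12 to 26 promoter, 3 to 10 exon and 42 to 90 intron peaks, the lower value each time without replicate 1. The count found in both cannot be had from 1 replicate. A promoter of 2 kb left 5 exon peaks, and placing exons before promoters gave 22. Without summits in GA repeats, an alternative chosen after seeing the data, 224 peaks overlapped a gene, 137 belonged to coding and lncRNA genes, 33 were promoter, 11 exon and 89 intron peaks, and 19 were found in both. No paired analysis was possible because all values come from YAP libraries, and the inputs of the same numbers were not analysed here. With 18187551 tags against 27762264, weak peaks missing from replicate 2 cannot be told apart from peaks not detectable at its depth. Members found in replicate 1 only had 19 to 519 tags there, with a median of 44. The fewest tags of any replicate 2 peak were 15. Whether depth plays a part for the stronger missing peaks was not tested. Reads in repeated sequence cannot be assigned to a single copy.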
